A study of Mus musculus with 18 samples.

Results

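S1pr1, S1pr4 and S1pr5 encode 3 of the 5 mouse receptors for sphingosine-1-phosphate (S1P), and their RNA was followed in natural killer (NK) cells with and without an induced deletion of Eomes. The 3 genes were chosen by name as receptors of lymphocyte exit from tissues, with earlier results of these data known, out of 41388 genes in each deposited table. All 3 passed the filter on low counts. The series asks which genes the T-box transcription factor Eomes regulates at each step of NK cell maturation. KO cells came from C57BL/6 mice with 1 Ncr1 allele carrying an inducible Cre recombinase (Ncr1-iCreERT2 KI/WT), a YFP reporter behind a stop cassette (Rosa26YFPLSL) and floxed Eomes (Eomesfl/fl), treated with tamoxifen. WT cells came from C57BL/6 mice labelled wild type. Mice were 8 to 12 weeks old, the treatment lasted 3 days, and NK cells were purified from pooled spleens in 3 experiments. Cre was driven from Ncr1, a gene of NK cells and of other innate lymphoid cells that carry its receptor. Whether WT mice carried Cre or received tamoxifen is not stated, and an effect of either cannot be told apart from the deletion's.

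Each pool was sorted into stage II (CD27 without CD11b), stage III (both proteins) and stage IV (CD11b without CD27), with 3 KO and 3 WT libraries per stage and 18 in all. Total counts ran from 18684350 to 28365837 per library. The labels do not say how many mice a pool held or which replicate number belongs to which experiment, so the p-values below measure the spread between these libraries. The NK genes Ncr1 and Klrb1c had at least 1402 and 2024 CPM (counts scaled to the library's size) in every library. Ncr1, the gene that carries the Cre in KO mice, varied widely between WT libraries. It ran from 2376 to 3796, 2111 to 3803 and 2126 to 4076 CPM in WT stages II, III and IV. In KO it ran from 2128 to 2353, 1402 to 1956 and 1955 to 2187 CPM. In WT the lowest of the 3 values was that of replicate 1 at every stage, and the cause of this spread was not tested. RNA of the 2 sort markers followed the gates: Cd27 was lower in stage IV and Itgam, which encodes CD11b, was lowest in stage II in both genotypes. The lineage genes Pax5 (B cells, at most 0.206 CPM), Cd4 and Cd8a (T cells, at most 0.670 and 0.325) and Cdh5 (endothelium, at most 0.464) were near 0 in every library. Other members of the same lists were not, with maxima of 743 CPM for Cd74, 308 for Trbc2 and 194 for Pecam1. The number of genes with a count was 14824 and 16536 in replicates 1 and 3 of KO stage III and 21454 in its replicate 2, and these 3 had the lowest quality weights of the 18 libraries. Xist, which female cells transcribe, was at 0.636 CPM or less in WT replicates 2 and 3 of every stage and at 5.66 CPM or more in the other 12 libraries. All KO libraries were among those 12, and replicate 1 was the only WT replicate among them. Against WT replicates 2 and 3, an effect that goes with Xist cannot be told apart from the deletion's. Eomes itself was lower in KO than in WT by log2 -1.70 ± 0.15, -0.69 ± 0.15 and -1.28 ± 0.15 (SE) in stages II, III and IV, with adjusted p of 1.15e-05, 0.0143 and 2.74e-04 by edgeR's quasi-likelihood test. The stage III call of Eomes was lost under 4 of 12 other settings and in 4 of the 18 fits with a library left out (KO stage III replicate 1, or WT stage III replicate 1, 2 or 3), with log2 values between -0.85 and -0.61.

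S1P is a lipid that is abundant in blood and lymph and scarce inside lymphoid tissue, and G protein-coupled S1P receptors let lymphocytes sense that gradient and leave. S1P receptor 1 guides T and B cells out of lymph nodes and thymus and is pulled from the cell surface by CD69 and by its own ligand. S1P receptor 5 is the receptor that NK cells use to leave bone marrow and lymph nodes, and in mouse NK cells its expression depends on the T-box factor T-bet. S1P receptor 4 is expressed mainly by blood cells, and its part in NK cell traffic is less well described.

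The 3 genes lie on 3 chromosomes, each on the minus strand and each with its whole reading frame in 1 exon. In the listed coordinates, which overlap the GRCm38 positions of these genes, S1pr5 (ENSMUSG00000045087) spans chromosome 9, 21242912 to 21248443, with 3 exons. S1pr1 (ENSMUSG00000045092) spans chromosome 3, 115710433 to 115715055, with 2 exons, and S1pr4 (ENSMUSG00000044199) spans chromosome 10, 81497745 to 81500132, with 1 exon. No other gene listed in the files overlapped them. RefSeq promoters (GRCm38.p6, minus strand, 250 bases before to 50 after the start) were available for S1pr5 and S1pr4. They are shown because S1pr5 was called lower in KO in stages II and III, and S1pr4 was not called in KO against WT at any stage. Capitals mark CACCC or its complement GGGTG, the box that Krüppel-like factors such as KLF2 bind.
S1pr5, chr9:21248394-21248693: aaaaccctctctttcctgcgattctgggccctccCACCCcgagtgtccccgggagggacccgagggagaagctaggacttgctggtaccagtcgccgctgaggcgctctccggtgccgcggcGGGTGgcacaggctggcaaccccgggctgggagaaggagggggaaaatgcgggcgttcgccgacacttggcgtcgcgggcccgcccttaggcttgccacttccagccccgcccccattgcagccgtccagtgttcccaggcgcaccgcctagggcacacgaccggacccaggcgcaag
S1pr4, chr10:81500088-81500387: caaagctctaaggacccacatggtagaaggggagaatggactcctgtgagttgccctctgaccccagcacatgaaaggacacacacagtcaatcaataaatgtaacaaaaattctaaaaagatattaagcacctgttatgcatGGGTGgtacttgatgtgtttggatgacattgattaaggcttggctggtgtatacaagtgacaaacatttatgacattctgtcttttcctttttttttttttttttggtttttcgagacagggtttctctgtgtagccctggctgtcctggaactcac
The S1pr5 window had 69.3% G and C bases and the S1pr4 window 41.0%, around a median of 52.7% over 32851 promoters. The S1pr5 window held CACCC at 216 bases before the start on the gene's strand and GGGTG at 128 bases before it, and the S1pr4 window held GGGTG at 107 bases before it. On either strand, 57.52% of all 32851 windows held this box. The T-box letters GGTGTGA, found on either strand in 3.979% of windows, and their first 6 letters GGTGTG, found in 19.05%, were in neither of the 2 windows.

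S1pr5 had the widest range of the 3 receptors. Its level rose at each maturation step in both genotypes, from a lower start in KO cells. In stage II it had 19.6, 19.9 and 16.7 CPM in KO replicates 1, 2 and 3, against 51.5, 47.3 and 53.3 CPM in WT replicates 1, 2 and 3, all CPM here being scaled by edgeR's TMM factors. Every KO library was below every WT library, and the highest KO value was far under the lowest WT value. On the log2 scale the fitted change was -1.44 ± 0.14 (SE, 3 libraries per genotype), or 2.71-fold lower in KO, with an adjusted p of 2.10e-05 by edgeR. By p-value S1pr5 ranked 7 among the 14156 genes tested in this contrast, of which 1.46% were called changed at an adjusted p under 0.05. It was the only 1 of the 3 receptors called there. Leaving out any 1 of the 18 libraries moved the log2 value between -1.46 and -1.34, and it was called in all 18 of those fits and under all 12 other settings.

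In stage III S1pr5 had 93.9, 72.4 and 67.9 CPM in KO replicates 1, 2 and 3, against 115, 110 and 120 CPM in the WT replicates. All 3 KO libraries were again below all 3 WT libraries, though the gap was narrower. The fitted change was log2 -0.56 ± 0.13 (SE, 3 libraries per genotype), or 1.47-fold lower in KO, with an adjusted p of 0.0246 by edgeR, in a contrast where 7.90% of tested genes were called. S1pr5 was the only receptor of the 3 called. The call ended (adjusted p between 0.0782 and 0.114) without KO replicate 3 or without WT replicate 1, 2 or 3 of that stage, without the 2 KO libraries of few genes (0.0615), with voom quality weights (0.0574) and with only the stage III libraries in the fit (0.396). In those fits S1pr5 was still lower in KO, by log2 values from -0.68 to -0.50.

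In stage IV the order turned over. S1pr5 had 369, 302 and 317 CPM in KO replicates 1, 2 and 3, against 290, 280 and 241 CPM in the WT replicates, and every KO library was above every WT library. The fitted log2 value of 0.28 ± 0.13 (SE, 3 libraries per genotype; 95% interval 0.00 to 0.56) had an unadjusted p of 0.0473 and an adjusted p of 0.884 by edgeR, so S1pr5 was not called in stage IV. In that contrast 0.509% of tested genes were called, and none of the 3 receptors was.

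**Figure D1:**
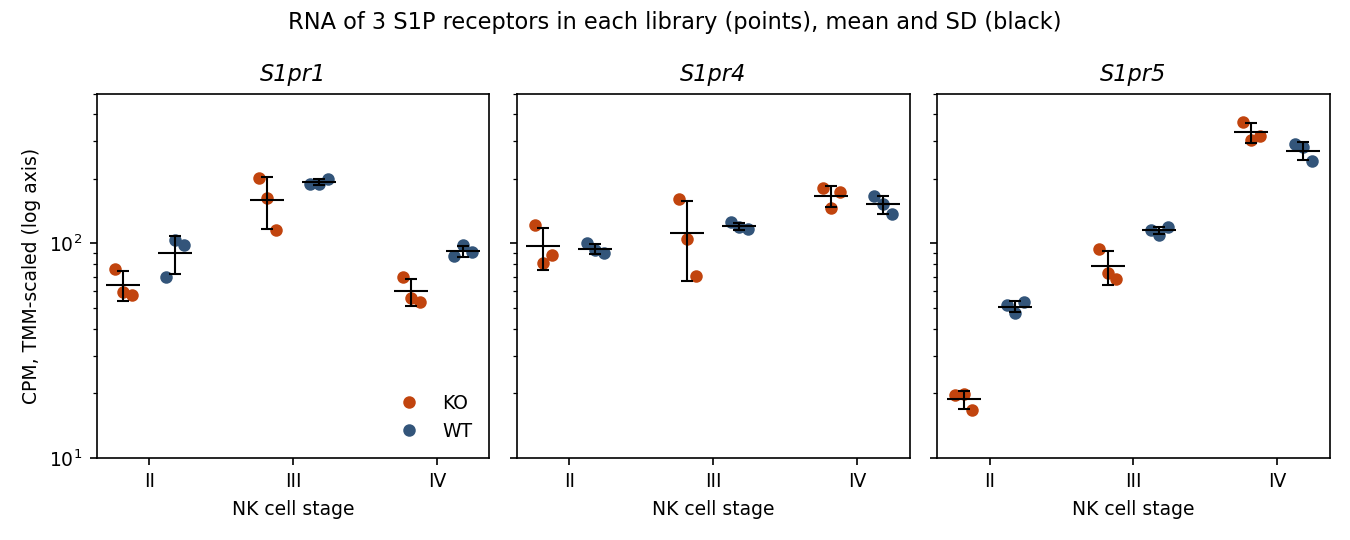
TMM-scaled CPM (log axis) of S1pr1, S1pr4 and S1pr5 in each of 18 libraries by NK cell stage, with KO left of WT; points are libraries and black marks the mean and SD of 3. S1pr5 climbs from a mean of 18.7 CPM in KO stage II to 329 CPM in KO stage IV, S1pr1 peaks in stage III in both genotypes, and S1pr4 varies least.

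The difference between stages was tested directly. The KO against WT effect on S1pr5 was higher in stage IV than in stage II by log2 1.72 ± 0.19 (SE; 95% interval 1.32 to 2.13), or 3.30-fold, with an adjusted p of 0.00117 by edgeR. This interaction had the lowest p-value of the 14156 genes tested, of which 0.212% were called. It was called in all 18 fits that left out a library (1.60 to 1.76) and under all 13 other settings (1.65 to 1.75). Each neighbouring pair of stages contributed a similar amount. The effect was higher in stage III than in stage II by 0.88 ± 0.19 (adjusted p 0.113) and higher in stage IV than in stage III by 0.84 ± 0.19 (adjusted p 0.193), and edgeR called neither of these 2 differences. In those 2 interactions 0.0494% and 0.0283% of genes were called. DESeq2 called both, with adjusted p of 0.00258 and 0.00519, and edgeR called both without KO stage III replicate 2, with adjusted p of 0.00637 and 0.0125. These fits called more genes overall: 0.812% and 0.381% by DESeq2, and 14.97% and 14.95% without that library. Within each replicate number the KO minus WT difference of log2 CPM was highest in stage IV, at 0.35, 0.11 and 0.39 for numbers 1, 2 and 3. It was lowest in stage II, at -1.39, -1.25 and -1.67. Since KO and WT libraries did not overlap in stages II and IV, these signs hold for any matching of libraries.

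**Figure D2:**
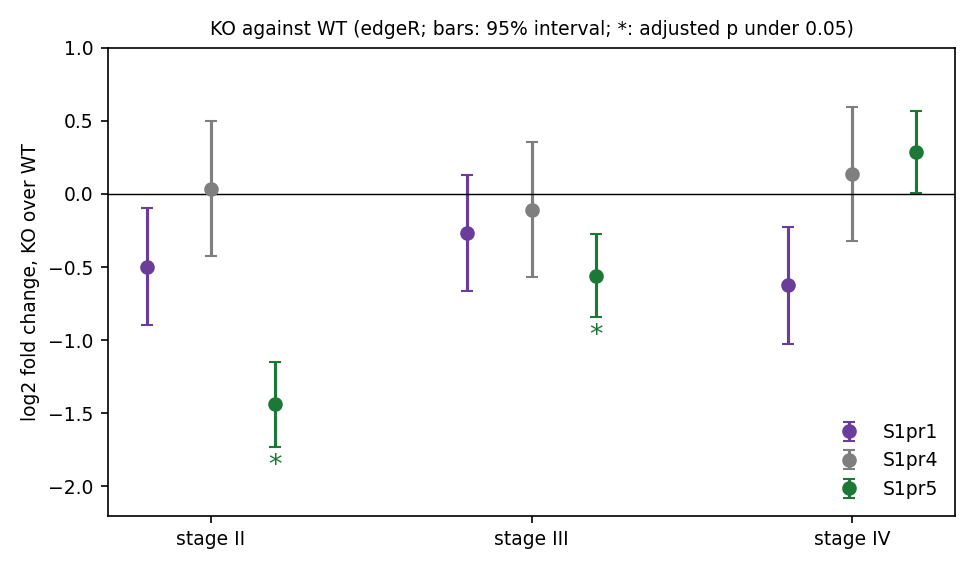
Fitted log2 fold change of KO over WT for the 3 receptors at each stage (edgeR, n = 3 libraries per genotype and stage), with 95% intervals; asterisks mark an adjusted p under 0.05. S1pr5 goes through -1.44, -0.56 and 0.28 from stage II to IV, S1pr1 stays below 0 and S1pr4 stays near 0.

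The maturation steps show the same data from the other side. In KO cells S1pr5 rose 4.17-fold in stage III over stage II (log2 2.06 ± 0.14, adjusted p 1.40e-07) and 4.22-fold in stage IV over stage III (log2 2.08, adjusted p 7.85e-08), both by edgeR. In WT cells the same steps were 2.27-fold (log2 1.18, adjusted p 4.79e-05) and 2.35-fold (log2 1.23, adjusted p 3.72e-05). From stage II to stage IV, S1pr5 rose 17.6-fold in KO (log2 4.14 ± 0.15, adjusted p 4.60e-11 by edgeR) and 5.33-fold in WT (log2 2.41 ± 0.14, adjusted p 5.26e-09). The KO value had the lowest p-value of all genes tested in its contrast. Ordered by mean, the 6 groups ran from KO stage II (18.7 ± 1.8 CPM, SD, n = 3) through WT stage II (50.7 ± 3.1), KO stage III (78.1 ± 13.9), WT stage III (115 ± 4.9) and WT stage IV (270 ± 26) to KO stage IV (329 ± 35). The ranges of neighbouring groups in this order did not overlap. These comparisons share libraries, so they are not independent of the interaction above. The shares of tested genes called in KO were 10.1% in stage III over II, 17.7% in stage IV over III and 14.9% in stage IV over II, and in WT they were 2.97%, 3.17% and 15.1%.

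S1pr1 had another course: highest in stage III in both genotypes, and lower by mean in KO than in WT at every stage, without a call in any KO against WT contrast. In stage II it had 75.6, 59.5 and 57.2 CPM in KO replicates 1, 2 and 3, against 69.4, 103 and 98.6 CPM in the WT replicates. KO replicate 1 was above WT replicate 1, so the groups overlapped. The log2 fold change was -0.50 ± 0.19 (95% interval -0.90 to -0.10), with an unadjusted p of 0.0179 and an adjusted p of 0.369 by edgeR. In stage III S1pr1 had 202, 162 and 115 CPM in the KO replicates, against 189, 189 and 200 CPM in the WT replicates. The KO libraries spread on both sides of the narrow WT range, and the log2 fold change was -0.27 ± 0.19 (interval -0.66 to 0.13, adjusted p 0.358 by edgeR).

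In stage IV S1pr1 had 69.8, 55.9 and 53.5 CPM in KO replicates 1, 2 and 3, against 87.6, 97.9 and 90.8 CPM in the WT replicates, with no overlap between the groups. Its log2 fold change of -0.63 ± 0.19 (interval -1.03 to -0.22) had an unadjusted p of 0.00435 and an adjusted p of 0.308 by edgeR. Voom with sample quality weights called S1pr1 lower in KO in stage II (-0.64, adjusted p 0.00168) and in stage IV (-0.72, adjusted p 0.00204), and edgeR with no filter on low counts called it in stage IV (-0.65, adjusted p 0.0448). Libraries of the same replicate number were also compared by the KO minus WT difference of log2 CPM. In stage II it was 0.12 for number 1, against -0.80 and -0.79 for numbers 2 and 3. It was 0.10, -0.22 and -0.79 for numbers 1, 2 and 3 in stage III, and -0.33, -0.81 and -0.76 in stage IV. The WT libraries of numbers 2 and 3 were those without Xist. For number 1, S1pr1 was thus higher in KO in stages II and III and lower in stage IV. With a term for Xist in the edgeR fit, chosen after seeing the data, the log2 fold changes of S1pr1 were -0.33, -0.12 and -0.48 in stages II, III and IV, and those of S1pr5 were -1.48, -0.60 and 0.24. The KO effect on S1pr1 was not called different between any 2 stages by edgeR, with values of 0.23, -0.36 and -0.13 for III minus II, IV minus III and IV minus II and adjusted p of 0.720, 0.592 and 1.

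**Figure D3:**
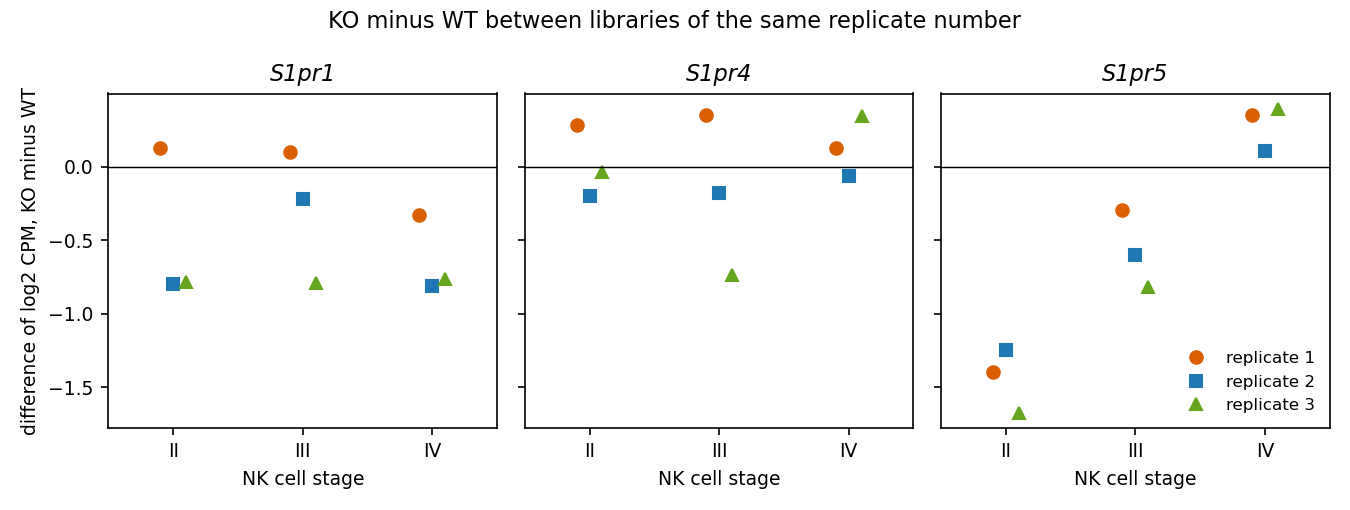
Difference of log2 CPM, KO minus WT, between libraries that share a stage and a replicate number, for each receptor; each marker is 1 pair of libraries. For each number the S1pr5 points climb by stage, and all 3 are below -1.2 in stage II and above 0 in stage IV, and the S1pr1 points of replicate 1 lie above those of replicates 2 and 3.

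The stage III peak of S1pr1 was called in both genotypes. In KO cells S1pr1 was 2.496-fold higher in stage III than in stage II (log2 1.32 ± 0.19, adjusted p 3.00e-04 by edgeR) and 2.68-fold lower in stage IV than in stage III (log2 -1.42, adjusted p 1.12e-04). In WT cells the corresponding values were 2.13-fold higher (log2 1.09, adjusted p 0.00275) and 2.09-fold lower (log2 -1.06, adjusted p 0.00343). Stage IV and stage II were close, with log2 fold changes of -0.10 in KO (adjusted p 0.805) and 0.03 in WT (adjusted p 0.949). By mean, KO stage IV (59.7 ± 8.8 CPM, SD, n = 3), KO stage II (64.1 ± 10.1), WT stage II (90.5 ± 18.4) and WT stage IV (92.1 ± 5.3) stood below KO stage III (160 ± 44) and WT stage III (193 ± 6.3). Among the neighbours in this order, WT stage IV and KO stage III were the only pair whose libraries did not overlap.

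S1pr4 was not called between genotypes at any stage and was called higher only between the ends of maturation. It had 122, 80.9 and 88.1 CPM in KO stage II, against 99.9, 93.0 and 90.4 CPM in WT stage II. In stage III it had 160, 105 and 70.3 CPM in KO, against 126, 119 and 117 CPM in WT, and in stage IV 181, 146 and 174 CPM in KO, against 166, 152 and 137 CPM in WT. The groups overlapped at all 3 stages, and KO stage III held the widest spread. The log2 fold changes of KO over WT were 0.04 (95% interval -0.42 to 0.50), -0.11 (-0.57 to 0.35) and 0.14 (-0.32 to 0.60) in stages II, III and IV, with adjusted p of 0.990, 0.780 and 1 by edgeR. S1pr4 was higher in stage IV than in stage II by 1.73-fold in KO (log2 0.79 ± 0.22, adjusted p 0.0202 by edgeR) and by 1.61-fold in WT (log2 0.69 ± 0.22, adjusted p 0.0425). The WT call ended in 10 of the 18 fits that left out a library, with adjusted p up to 0.132, and the KO call in 4 of 18, with adjusted p up to 0.115. By mean, WT stage II (94.4 ± 4.9 CPM, SD, n = 3), KO stage II (96.9 ± 21.7), KO stage III (112 ± 45) and WT stage III (120 ± 4.5) stood below WT stage IV (152 ± 15) and KO stage IV (167 ± 19), and only WT stage III and WT stage IV were neighbours without overlap. The single steps were not called: 0.21 and 0.58 in KO for III over II and IV over III (adjusted p 0.567 and 0.0728), and 0.35 and 0.34 in WT (adjusted p 0.674 and 0.668). The KO effect on S1pr4 was not called different between stages (-0.14, 0.24 and 0.10 for III minus II, IV minus III and IV minus II).

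To compare the receptors with each other, the deposited RPKM was used, which divides by gene length. In stage II S1pr4 had the most RNA per length, with 42.9 ± 10.3 RPKM in KO and 41.8 ± 4.8 in WT (SD, n = 3 each). S1pr1 had 22.4 ± 3.9 RPKM in KO and 31.2 ± 4.6 in WT, and S1pr5 had 7.90 ± 0.80 RPKM in KO and 21.4 ± 2.1 in WT. In stage IV S1pr5 led, with 133 ± 15 RPKM in KO and 108 ± 13 in WT, followed by S1pr4 with 71.0 ± 9.4 RPKM in KO and 63.5 ± 7.8 in WT. S1pr1 was last there, with 19.96 ± 2.93 RPKM in KO and 30.2 ± 1.1 in WT. In stage III S1pr1 averaged 47.8 ± 15.7 RPKM in KO and 63.5 ± 2.1 in WT.

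As a share of the summed RPKM of the 3 genes, S1pr5 made up 9.35 to 12.9% in the 3 KO stage II libraries, against 20.6 to 24.2% in the WT libraries. In stage IV it made up 58.3 to 60.3% in KO and 52.4 to 54.0% in WT, so the order of the genotypes was opposite at the 2 ends of maturation, with no overlap at either. S1pr1 made up 8.13 to 9.34% in KO stage IV and 13.5 to 16.3% in WT stage IV. These shares come from 3 libraries against 3, for which an exact permutation test cannot pass 0.05, and no test was run on them. The summed RPKM averaged 73.1 in KO and 94.4 in WT in stage II, 118 in KO and 160 in WT in stage III, and 224 in KO and 201 in WT in stage IV.

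**Figure D4:**
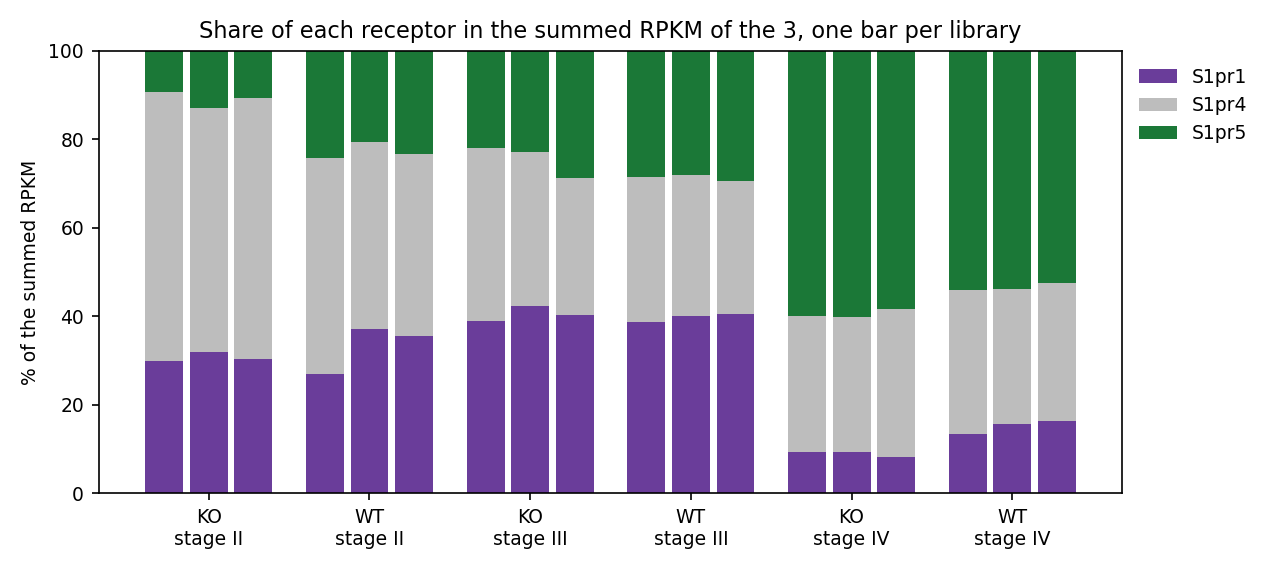
Share (%) of S1pr1, S1pr4 and S1pr5 in their summed RPKM, 1 stacked bar per library, with KO left of WT at each stage. The S1pr5 segment averages 10.99% in KO stage II and 22.7% in WT stage II, and 59.5% in KO stage IV and 53.4% in WT stage IV.

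Over the 18 libraries, log2 CPM of S1pr4 and S1pr5 had a Pearson correlation of 0.78, against -0.02 for S1pr1 and S1pr4 and 0.06 for S1pr1 and S1pr5. These libraries fall into 6 groups, so the values mostly describe the group means, and no p is given. The genes most like S1pr5 were Pogk (0.982), 0610012D04Rik (0.980), Klrg1 (0.979), which encodes an inhibitory receptor of mature NK cells, Cdc20b (0.979) and Cmklr1 (0.973), which encodes the chemerin receptor. The most opposite were Icosl (-0.984), the gene of the ligand of the costimulatory receptor ICOS, Serpina3f (-0.983), and Tapbp (-0.973), which encodes the peptide loading factor tapasin. For S1pr1 the closest were Plp2 (0.914), Reck (0.907), B3gat3 (0.882), Anxa1 (0.875), the annexin A1 gene, and Ms4a4b (0.855), and the most opposite Slc5a11 (-0.890), Med16 (-0.869) and Cdk2 (-0.854), a cell cycle kinase gene. For S1pr4 they were Lfng (0.924), a modifier of Notch receptors, Marveld1 (0.914), Abcd4 (0.913), Pip5k1c (0.909) and ENSMUSG00000099515 (0.901), and on the opposite side Ascc1 (-0.934), Dph5 (-0.910) and Tma16 (-0.910).

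The 2 remaining S1P receptors were low. S1pr3 had at most 9 counts in any library and did not pass the filter. S1pr2 averaged 3.05, 1.97 and 4.18 RPKM in KO stages II, III and IV, against 3.90, 4.23 and 4.50 RPKM in the WT stages. In stage III it had 76, 210 and 87 counts in KO, against 287, 325 and 297 in WT, with no overlap. Its log2 fold change there was -0.98 ± 0.27 (adjusted p 0.0394 by edgeR), a call lost under 5 of the 12 other settings, against -0.35 (adjusted p 0.866) in stage II and -0.12 (adjusted p 1) in stage IV. KO stage III replicates 1 and 3, which had counts for few genes, were the 2 low values.

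None of the other genes of the S1P pathway on the chosen lists was called in KO against WT by edgeR. Of 12 tested genes that make, break down or carry S1P (of 13 listed, among them the kinase gene Sphk2, the lyase gene Sgpl1 and the transporter genes Spns2 and Mfsd2b), 0 were called at each stage, where 1.46%, 7.90% and 0.509% of all tested genes were. With those shares a list of this size is not set apart by a count of 0. At an unadjusted p under 0.05 there were 1, 1 and 0 in stages II, III and IV, and DESeq2 called 0, 1 and 0. Their median log2 fold changes were -0.24, 0.21 and 0.13, beside -0.006, 0.016 and 0.016 over all genes tested. Acer2, Mfsd2b, Plpp1, Plpp3, Sgpp2 and Spns2 had group means of at most 2.14 TMM-scaled CPM. The counts and medians of this list thus rest partly on genes near the floor. Of 16 genes of receptor signalling and desensitization (G protein subunits, Rac proteins, RGS proteins, the kinase gene Grk2, arrestins and Cd69 among them), 0 were called at each stage, beside the same shares over all genes. There were 2, 3 and 0 at an unadjusted p under 0.05, DESeq2 called 0, 2 and 0, and the medians were 0.07, 0.08 and 0.03. Cd69, whose protein removes S1P receptor 1 from the surface, had a log2 fold change of -0.26, 0.08 and -1.50 in stages II, III and IV, with SEs of 0.92, 0.92 and 0.94 and adjusted p of 0.988, 0.964 and 1 by edgeR. Its libraries ran from 46.6 CPM in KO stage IV replicate 1 to 1319 CPM in KO stage III replicate 2.

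Among 7 transcription factors tied to these receptors in lymphocytes, 1 was called higher and 2 lower in KO in stages II and III. In stage IV 1 was higher and 1 lower. Of all tested genes, 1.46%, 7.90% and 0.509% were called in either direction in the 3 stages. At each stage 1 of the lower calls was Eomes, the targeted gene, which is no finding about the list and also enters the counts and medians below. The list was chosen with earlier results of these data known, so its counts are a description. Under the 12 other settings, 2 to 5, 0 to 5 and 2 were called in stages II, III and IV. Their median log2 fold changes were -0.75, -0.40 and 0.21. Prdm1, which encodes the maturation factor Blimp-1, had 18.9, 18.1 and 18.1 CPM in KO stage II, against 29.2, 37.1 and 44.1 CPM in WT stage II. It was lower in KO by log2 -1.002 ± 0.197 in stage II (adjusted p 0.0115 by edgeR) and -1.04 ± 0.19 in stage III (adjusted p 0.00635), and its value in stage IV was -0.43 (adjusted p 0.830). The Prdm1 call was lost under 1 of 12 other settings and in 5 of 18 fits with a library left out in stage II (log2 -1.15 to -0.69), and under 3 of 12 and in 1 of 18 in stage III (log2 -1.19 to -0.73). Zfp683, which encodes Hobit, a factor of tissue-resident lymphocytes, was higher in KO by 1.93 ± 0.28, 4.44 ± 0.37 and 5.29 ± 0.39 in stages II, III and IV, with adjusted p of 9.42e-04, 4.09e-06 and 3.07e-06 by edgeR. In stages III and IV its WT libraries had at most 0.536 CPM, so those fitted values depend on the prior count. The stage III call of Zfp683 was lost with only the stage III libraries in the fit (adjusted p 0.0628). Eomes was the other gene called at each stage.

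Zeb2, which encodes a factor needed for late NK maturation, came closest to the S1pr5 pattern on this list without being called. Its log2 fold changes were -0.90 (adjusted p 0.124), -0.73 (adjusted p 0.0776) and 0.24 (adjusted p 1 by edgeR), and the difference of stage IV minus stage II was 1.14 ± 0.36 (adjusted p 0.331). Zeb2 had 32.7, 46.2 and 30.3 CPM in KO stage II, against 57.5, 63.5 and 82.7 CPM in WT stage II, and 538, 523 and 486 CPM in KO stage IV, against 475, 451 and 383 CPM in WT stage IV. At both stages the groups did not overlap, with KO below WT in stage II and above it in stage IV. Tbx21, the T-bet gene, was not called, with 0.12, 0.21 and 0.30 in stages II, III and IV and adjusted p of 0.984, 0.510 and 1. Klf2, whose protein drives S1pr1 transcription in T cells, had -0.75, -0.40 and -0.42, with adjusted p of 0.653, 0.529 and 1, and Foxo1 had 0.03, 0.40 and 0.21, with adjusted p of 0.988, 0.0565 and 1. The test of Klf2 was imprecise, with an SE of 0.40 at each stage.

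**Figure D5:**
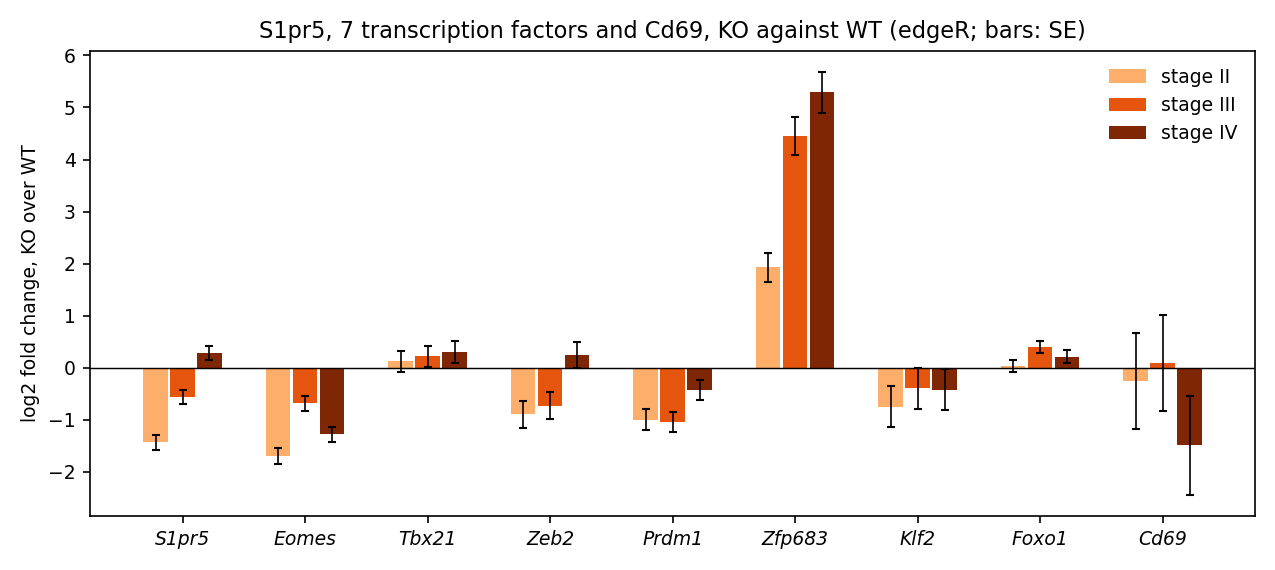
Log2 fold change of KO over WT (edgeR, bars with SE, n = 3 libraries per genotype) for S1pr5, 7 transcription factors and Cd69 at stages II, III and IV. S1pr5 and Zeb2 go from below 0 in stage II to above 0 in stage IV, Zfp683 is far above 0 in all 3 stages, and Cd69 has the widest error.

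Markers of other cells moved with genotype in the same libraries. Of 7 markers of type 1 innate lymphoid cells, 5, 7 and 2 were called higher in KO in stages II, III and IV, with Zfp683, which is also on the list of transcription factors, among them each time. Of all tested genes, 1.46%, 7.90% and 0.509% were called in either direction. The lists were chosen with earlier results of these data known, so the counts here are a description. Their summed level was 1466 to 1787 CPM in KO and 598 to 1187 CPM in WT in stage II, 143 to 255 CPM in KO and 44.7 to 57.5 CPM in WT in stage III, and 48.7 to 65.8 CPM in KO and 21.9 to 25.7 CPM in WT in stage IV. The 8 B cell markers summed to 767 to 882 CPM in KO and 492 to 669 CPM in WT in stage II, to 64.0 to 301 CPM in KO and 25.7 to 46.4 CPM in WT in stage III, and to 19.1 to 45.8 CPM in KO and 12.7 to 44.3 CPM in WT in stage IV. Of the 6 tested, 1, 3 and 0 were called higher in KO, beside the same shares. The 8 T cell markers summed to 397 to 491 CPM in KO and 507 to 577 CPM in WT in stage II, 170 to 244 CPM in KO and 145 to 168 CPM in WT in stage III, and 88.9 to 135 CPM in KO and 104 to 118 CPM in WT in stage IV. Of the 6 tested, 1 was called lower in KO in stage II (Cd3d, log2 -1.54, adjusted p 0.00121 by edgeR), 1 higher in stage III (Cd3g) and 0 in stage IV. In stage II Cd3d ran from 37.9 to 51.8 CPM in KO and from 120 to 142 CPM in WT. Trbc2, the largest member of that sum, went the other way, with 262 to 308 CPM in KO and 228 to 236 CPM in WT. The 6 myeloid markers, of which 5 were tested and edgeR called 0 at any stage, summed to 0.958 to 18.9 CPM in KO and 2.33 to 5.46 CPM in WT in stage II, to 1.41 to 78.4 CPM in KO and 1.25 to 6.03 CPM in WT in stage III, and to 1.45 to 8.96 CPM in KO and 0.635 to 12.1 CPM in WT in stage IV. The highest myeloid gene was Lyz2, at up to 63.1 CPM. Itgam, the CD11b gene that defines the gates, was 83.6 to 298 CPM in KO stage III and 390 to 469 CPM in WT stage III (log2 -1.35 ± 0.32, adjusted p 0.0225 by edgeR). Cd27 was 29.7 to 47.2 CPM in KO stage IV and 52.1 to 81.9 CPM in WT stage IV (log2 -0.92 ± 0.18, adjusted p 0.0329). The part of these shifts in the S1pr5 and S1pr1 values was not tested, and in sorted bulk cells fewer cells with a receptor and less of its RNA per cell cannot be told apart.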

How the data were processed

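RNA was sequenced in 18 libraries of sorted splenic NK cells. STAR 2.0.4 and featureCounts 1.4.5 (Subread) are named in the submitters' processing notes. Strandedness and genome build: not given in the sources used here. Each deposited table holds, per the file headers, a raw count, a CPM and an RPKM per Ensembl gene. The deposited CPM is the count scaled to the library's total, within a relative difference of 5e-15, and the deposited RPKM is that CPM per kilobase, within 6.5e-14. Positions overlap those of GENCODE M21 on GRCm38 for 40158 of 41388 IDs, and 40254 IDs had a symbol there. No 2 libraries of a group agreed within sampling noise.

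The raw counts entered edgeR 4.0.16 (R 4.3.3), with filtering by group (14156 genes kept), TMM scaling and 1 quasi-likelihood model of 6 group means over all 18 libraries. P-values were adjusted by Benjamini and Hochberg's method over all tested genes, and a gene was called at an adjusted p under 0.05. SEs are the absolute log2 fold change over the square root of F, with a prior count of 0.125 in the fit. The edgeR fit was tested on simulated counts with changes put into KO stage II only, for KO against WT in that stage. The other contrasts and differences in library quality were not simulated. Alternatives used DESeq2 1.42.0, limma 3.58.1 (voom), other scalings, filters, designs and left-out libraries. RPKM was used as deposited for levels between genes. Correlations used log2 CPM with a prior count of 2. Named genes were list members called in KO against WT, the receptors, chosen regulators, and for each receptor the 5 genes with the highest and the 3 with the lowest correlation. The members and lists were chosen with earlier results of these data known. Errors come from the spread between libraries, since the counts cannot separate PCR copies from molecules.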

Additional observations from a re-analysis of the deposited data

Results flagged for a closer look

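The KO against WT effect on S1pr5 differed between stages: it was higher in stage IV than in stage II by log2 1.72 ± 0.19 (adjusted p 0.00117 by edgeR's test of the interaction). S1pr5 was lower in all 3 KO libraries than in all 3 WT libraries of stage II, and higher in all 3 KO libraries than in all 3 WT libraries of stage IV. The difference is therefore positive for any matching of KO with WT libraries, and its sign within replicate numbers adds nothing.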

How the results depend on the processing

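Of 459 receptor fold changes under 13 other settings, 431 kept their direction and their side of the threshold, and of 648 with a library left out, 614 did. With voom quality weights, S1pr1 was -0.64 in stage II and -0.72 in stage IV (both now called), S1pr5 in stage III -0.61 (adjusted p 0.0574), S1pr4 in stage II -0.034 and S1pr1 in WT stage IV over II -0.041 (both reversed, uncalled). S1pr4 in WT became called for III over II (0.37) and IV over III (0.33). The last 2 were also called with only the groups compared (0.35 and 0.33), where S1pr5 in stage III was -0.56 with an adjusted p of 0.396. Without the 2 libraries of few genes, S1pr5 in stage III was -0.68 (adjusted p 0.0615). With no filter, S1pr1 in stage IV was -0.65 (called) and S1pr4 in KO IV over III 0.57 (called). DESeq2 called S1pr5 III minus II (0.89), IV minus III (0.85) and S1pr4 in KO IV over III (0.59), which voom also called (0.66). With library totals only, S1pr4 in KO III over II was -0.018 and S1pr1 in WT IV over II -0.048 (both reversed), and S1pr4 IV over II was 0.73 in KO and 0.60 in WT (both no longer called). That scaling moved the median of all genes by -0.157 in KO against WT stage III. Without the 2 libraries that had many genes at 1 to 5 counts (replicate 3 of KO stage IV, replicate 1 of WT stage II), the S1pr1 effect IV minus II was 0.10 and S1pr1 in WT IV over II -0.13 (both reversed), and S1pr4 IV over II was 0.76 in KO and 0.73 in WT (both no longer called). With the Xist term, S1pr4 in stage II was -0.054 (reversed). The causes of these shifts were not tested.

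Leaving out each library in turn moved S1pr4 between -0.15 and 0.17 in stage II and between -0.45 and 0.11 in stage III, and S1pr5 in stage III between -0.70 and -0.50. For the effects III minus II, the ranges were -0.0013 to 0.38 for S1pr1, -0.53 to 0.046 for S1pr4 and 0.69 to 0.92 for S1pr5. For IV minus III, S1pr5 ran from 0.75 to 0.99, and for IV minus II, S1pr1 ran from -0.28 to 0.032 and S1pr4 from -0.049 to 0.28. For stage IV over II, S1pr1 ran from -0.23 to 0.026 in KO and -0.14 to 0.17 in WT, and S1pr4 from 0.67 to 0.98 in KO and 0.65 to 0.79 in WT. In KO, S1pr4 ran from -0.12 to 0.43 for III over II and from 0.35 to 0.89 for IV over III, called without KO stage III replicate 1.

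Over all tested genes the replicate numbers tied KO to WT weakly at most. Deviations of KO and WT libraries with the same stage and number correlated by -0.10 to 0.17, over 0.1 in 3 of 9 pairs. Among the 18 libraries, each compared with the 3 of the other genotype in its stage, 10 correlated best with their own number. Single genes did shift with the number in both genotypes: replicate 1 was highest for S1pr4 and lowest for Cd69 in each of the 6 groups. S1pr1 and S1pr5 kept no such order over the groups. Between stages of 1 genotype, deviations of libraries with the same number correlated by -0.06 to 0.49, over 0.1 in 14 of 18 pairs, so libraries of a number partly varied together across stages. With the number as a block within each genotype, chosen after seeing the data, the contrasts between stages and the interactions kept every receptor call of the main results. S1pr4 in KO IV over III became called (0.64, adjusted p 0.0144), and the S1pr5 effect IV minus II was 1.72 (adjusted p 0.00110). The genes called for the interactions were 12, 12 and 59 for III minus II, IV minus III and IV minus II, against 7, 4 and 30. With the number as a block over both genotypes, S1pr4 in KO IV over III became called (0.62), no other receptor call changed, and the genes called in KO against WT were 260, 1770 and 89 in stages II, III and IV, against 207, 1119 and 72 without it. Over the other settings those counts ran from 127 to 1061, 10 to 2271 and 34 to 358, and over left-out libraries from 105 to 325, 144 to 4993 and 30 to 110, with the widest range in stage III.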
